A study of Mus musculus with 15 samples.

Results

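The keratins *Krt7*, *Krt8*, *Krt18*, *Krt19*, *Krt17* and *Krt42* were followed in mouse embryonic stem cells (ESCs) that lost the pluripotency factor OCT4. They were listed under the name simple epithelial keratins, although *Krt17* is best known from other epithelia, as given below. These 6 genes were taken by name, out of 48709 annotated genes and 54 annotated keratin genes. All 6 had reads in each of the 15 libraries, from 2 reads of *Krt17* in O4AID to 6216 reads of *Krt18* in CreER.

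OCT4, the product of *Pou5f1*, was removed in ESCs by either of 2 routes, and total RNA depleted of ribosomal RNA was sequenced over time. CreER ESCs (genotype Oct4Fl/-; CAG CreER, strain Mixed 129SV C57BL/6) carry a floxed *Oct4* allele over a null allele, and 500 nM 4-OHT activates a Cre recombinase made from the ubiquitous CAG promoter. CreER libraries were untreated (0 h) or treated for 12, 18, 24 and 36 h, 2 replicates each. O4AID ESCs (ZHBT O4AID, strain 129SV) are Oct4-/- and carry the transgenes TetOFF Oct4, CAG Oct4AID and CAG Tir1. Their OCT4 comes from Oct4AID, a fusion with an auxin-inducible degron (AID), which 500 µM of the auxin IAA targets for breakdown through Tir1. O4AID libraries were untreated (0 h) or treated for 1.5, 6, 10 and 24 h, with 1 library at each time, and all 5 were grown with 1 µg/ml doxycycline, which silences their wild-type *Oct4* transgene. Both lines were cultured in N2B27 with 1 µM PD03, 3 µM Chiron and mLIF on gelatin, also at 0 h. In these RNA libraries each route is represented by a single cell line. Untreated libraries were taken only at 0 h, and no library had 4-OHT or IAA without the loss of OCT4. Loss of OCT4, the added compound and hours in culture therefore cannot be told apart. Nothing in the labels says that CreER replicates came from separate cultures, so p-values measure only the spread between these libraries.

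Keratins are the intermediate filament proteins of epithelia, and a filament is built from pairs of an acidic type I and a basic type II keratin. *Krt8* (type II) and *Krt18* (type I) form the principal pair of simple, single-layered epithelia and are among the first intermediate filaments of the mouse embryo, where they mark the trophectoderm, the outer layer that gives rise to the placenta. *Krt7* (type II) and *Krt19* (type I) join them in many simple epithelia, whereas *Krt17* (type I) is best known from epithelial appendages and stressed skin, and *Krt42* is a less studied type I keratin.

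The members lay in the 2 keratin clusters of the genome (GRCm38). On chromosome 15 were *Krt7* (chr15:101411043-101430313, plus strand, 10 exon blocks), *Krt8* (chr15:101996711-102004342, minus strand, 9 exon blocks) and *Krt18* (chr15:102028216-102032026, plus strand, 7 exon blocks). *Krt8* and *Krt18* were transcribed away from each other, with 23873 bases between their starts. *Krt18* thereby sat apart from the other type I members, which were on the minus strand of chromosome 11, namely *Krt19* (chr11:100140810-100148665), *Krt17* (chr11:100256217-100261029) and *Krt42* (chr11:100262882-100269871), each with 8 exon blocks. *Krt17* and *Krt42* were separated by 1852 bases.

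RefSeq promoter windows (GRCm38.p6), which span 250 bases before to 50 bases after a gene's start, were available for *Krt7*, *Krt8*, *Krt18* and *Krt42*. They are shown because these genes rose together in CreER, as given further on, from levels that differed widely. The bases before the start are printed 5′ to 3′ on the gene's own strand, and capitals mark the motifs listed after them. They end before the start or, where it comes first, before the first base of the window in an annotated UTR. The RefSeq start of *Krt7* (101412403) lies downstream of the first base of its counted exons (101411043). Its window therefore lies inside the span of *Krt7* given above. *Krt7* is shown at chr15:101412153-101412401 (plus strand), *Krt8* at chr15:102004483-102004592 (minus strand), *Krt18* at chr15:102027966-102028179 (plus strand) and *Krt42* at chr11:100269952-100270201 (minus strand).
Krt7: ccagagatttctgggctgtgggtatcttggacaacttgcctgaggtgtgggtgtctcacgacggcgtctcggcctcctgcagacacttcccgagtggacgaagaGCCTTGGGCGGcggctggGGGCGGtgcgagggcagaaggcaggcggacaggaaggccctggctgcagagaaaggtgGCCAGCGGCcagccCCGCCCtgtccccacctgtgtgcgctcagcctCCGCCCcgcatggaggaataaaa
Krt8: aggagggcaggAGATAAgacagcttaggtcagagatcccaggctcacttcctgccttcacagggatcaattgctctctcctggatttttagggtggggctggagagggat
Krt18: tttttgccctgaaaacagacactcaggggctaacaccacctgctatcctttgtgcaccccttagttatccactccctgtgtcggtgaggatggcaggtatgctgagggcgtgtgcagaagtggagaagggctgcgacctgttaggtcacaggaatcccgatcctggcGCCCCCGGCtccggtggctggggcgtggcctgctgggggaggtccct
Krt42: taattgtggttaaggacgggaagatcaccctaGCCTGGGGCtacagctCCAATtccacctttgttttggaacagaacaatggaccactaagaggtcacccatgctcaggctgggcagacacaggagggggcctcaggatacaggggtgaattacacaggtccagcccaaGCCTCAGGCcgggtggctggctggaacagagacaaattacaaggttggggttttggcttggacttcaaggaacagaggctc

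In the window of *Krt7*, the GC box letters GGGCGG, a known binding sequence of Sp factors, stood at 4 places (first bases at -141, -128, -56 and -24 from the start, where -1 is the base before it, on either strand), and 35.6% of all 32817 promoter windows held them. No other window of the 4 did. The AP-2 letters GCCNNNGGC (16.6% of all windows) were found in *Krt7* at -146 and -70, in *Krt18* at -83, and in *Krt42* at -218 and -81. The copy at -146 in *Krt7* shares bases with the GC box at -141. The TATA box letters TATAAA (13.6% of all windows) occurred in *Krt8* at -1 and, on the opposite strand, at -3, and in *Krt42* at position 20, all outside the printed bases. *Krt8* also held the GATA letters AGATAA (11.2% of all windows) at -239, and *Krt42* held CCAAT (37.4%) at -202. The TEAD letters GGAATG (14.7%), the AP-1 letters TGANTCA (7.81%) and the octamer ATGCAAAT (1.74%), the sequence that OCT4 is known to bind, were not found in these 4 windows, which says only that these letters are not there. The *Krt7* window was the most GC-rich, with 66.3% G and C against 61.3% in *Krt18*, 58.0% in *Krt8* and 54.0% in *Krt42*, and the median of all windows was 52.7%.

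Libraries held 21655083 to 30774618 counted reads in CreER and 40537353 to 48719670 in O4AID. The targeted transcript checked the CreER labels: *Pou5f1* was at 327 ± 3.91 CPM (counts per 1000000 reads; SD, n = 2) at 0 h and 121 ± 8.59 at 36 h, which was -1.43 on the log2 scale (adjusted p = 4.15e-19, SE 0.04). In O4AID, where the fusion protein and not its transcript is targeted, *Pou5f1* stood at a log2 ratio of -0.25 at 24 h. Counts were scaled by TMM (trimmed mean of M values). CPM are used for a gene over time within a line, and RPKM (CPM per kilobase of gene length) where genes or lines are set side by side.

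Untreated CreER ESCs expressed the *Krt8* and *Krt18* pair far above the other members. Per length, *Krt18* stood at 101 ± 0.580 RPKM (SD, n = 2) and *Krt8* at 51.5 ± 2.48 RPKM. *Krt19* was at 7.87 ± 0.955 RPKM, *Krt42* at 7.19 ± 0.193 RPKM, *Krt17* at 3.47 ± 0.351 RPKM and *Krt7* at 1.17 ± 0.0039 RPKM. Replicates of *Krt19* (7.20 and 8.55) and *Krt42* (7.05 and 7.33) overlapped, so the order of these neighbours was within their spread, and replicates of the other neighbours did not overlap. In untreated O4AID ESCs *Krt8* led with 5.16 RPKM, *Krt18* followed with 4.18 RPKM and *Krt42* with 0.314 RPKM. *Krt19* (0.0717 RPKM), *Krt7* (0.0660 RPKM) and *Krt17* (0.0572 RPKM) rested on 6, 21 and 4 reads. The file length of *Krt7* (7055 bases) joins all its exons, and on its longest coding transcript (4094 bases) it stood at 2.02 RPKM in CreER and 0.114 RPKM in O4AID.

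**Figure D1:**
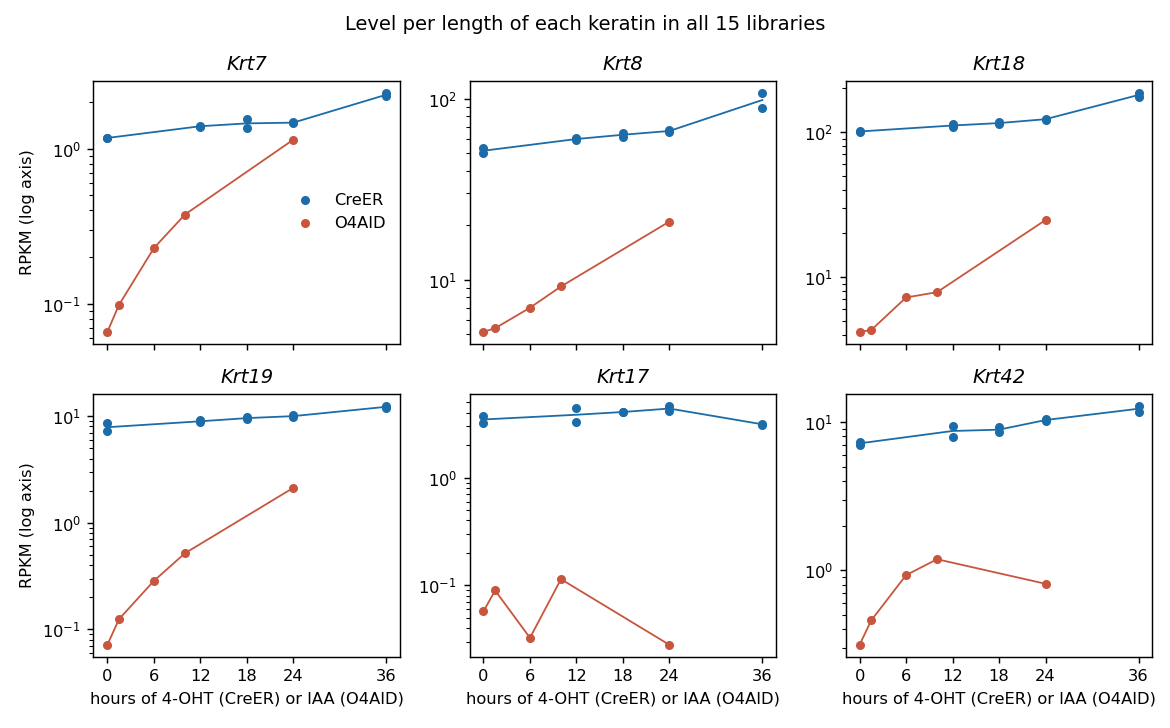
Level per length (RPKM, log axis) of each keratin against hours of 4-OHT (CreER) or IAA (O4AID). Each point is a library, and lines join the means of the 2 CreER replicates or the single O4AID libraries. *Krt8* rose from 51.5 to 98.2 RPKM in CreER and from 5.16 to 20.9 RPKM in O4AID, and all CreER points lie above the O4AID points of the same gene.

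The CreER course asked how the keratins move as the *Oct4* gene is deleted. *Krt7*, *Krt8*, *Krt18*, *Krt19* and *Krt42* rose, by 1.56-fold (*Krt19*) to 1.92-fold (*Krt8*) at 36 h, and *Krt17* did not. At 12 h none of the 6 was called by edgeR's quasi-likelihood test at an adjusted p under 0.05, where 0.395% of all 18969 tested genes were called in either direction and 0.258% were called higher. DESeq2 also called 0. In the edgeR fit 5 of the 6 (all but *Krt17*) had an unadjusted p under 0.05. By p-value these 5 ranked from 305 (*Krt42*) to 1502 (*Krt19*, unadjusted p = 0.0442) of all 18969 tested genes. The share of all genes under 0.05 without adjustment is not given here, so this count is not read as a result about the members. At 18 h 5 members were called higher, beside 4.73% of all tested genes (8.52% in either direction). The same 5 were called at 24 h, beside 11.0% (21.6% in either direction), and at 36 h, beside 19.4% (36.6% in either direction). The median log2 fold change of the 6 was 0.20, 0.29, 0.35 and 0.82 at 12, 18, 24 and 36 h, while that of all tested genes was -0.0003, 0.0053, 0.013 and 0.0070. The 18 h count was the least firm. It was 2 by DESeq2, 3 with only the 4 libraries compared, 0 without 18 h replicate 1, 1 without 18 h replicate 2 or 0 h replicate 1, and 2 without 0 h replicate 2 or either 24 h replicate. The 24 h count was 4 by DESeq2 (*Krt7* at an adjusted p of 0.0805), 3 without 0 h replicate 2 or 24 h replicate 1, and 6 with total-count scaling, without a filter or without 12 h replicate 1, and the 36 h count was 5 under every alternative run.

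Of the type II members, *Krt8* was measured at 97.7 and 91.2 CPM at 0 h, 111 and 108 CPM at 12 h, and 119 and 113 CPM at 18 h. It reached 119.7 and 124 CPM at 24 h and 165 and 199 CPM at 36 h. All treated libraries stood above both untreated libraries, and both 36 h libraries above the other 8. Its log2 fold change came to 0.37 ± 0.07 (SE) at 24 h (adjusted p = 0.00321) and 0.94 ± 0.07 at 36 h (adjusted p = 3.11e-07).

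*Krt7*, the other type II member, was at 8.38 and 8.42 CPM at 0 h and at 10.1 and 9.92 CPM at 12 h. It stood at 11.1 and 9.79 CPM at 18 h, 10.6 CPM in both libraries at 24 h, and 15.7 and 16.6 CPM at 36 h. Groups did not overlap with 0 h at any time. The 18 h replicates spanned those of 12 h and of 24 h, which did not overlap each other. Its log2 fold change came to 0.31 ± 0.10 (SE) at 18 h (adjusted p = 0.0469), 0.33 ± 0.10 at 24 h (adjusted p = 0.0140) and 0.94 ± 0.09 at 36 h (adjusted p = 5.74e-09).

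*Krt18*, the type I partner of *Krt8*, had 143 and 144 CPM at 0 h, 153 and 162 CPM at 12 h, and 167 and 161 CPM at 18 h. It had 176 and 174 CPM at 24 h and 249.9 and 268 CPM at 36 h. Both 36 h libraries stood above the other 8, and by p-value it ranked 79 of all tested genes at 36 h, the best rank of the 6. Its log2 fold change came to 0.19 ± 0.04 (SE) at 18 h (adjusted p = 0.00517), 0.29 ± 0.04 at 24 h (adjusted p = 2.08e-05) and 0.85 ± 0.04 at 36 h (adjusted p = 1.04e-14).

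*Krt19*, which lacks the tail domain of other keratins, was at 13.6 and 16.1 CPM at 0 h, 16.5 and 17.2 CPM at 12 h and 17.7 and 18.4 CPM at 18 h. It was at 19.3 and 18.5 CPM at 24 h and at 22.8 and 23.7 CPM at 36 h. The untreated replicates lay further apart than those of any treated time. Its log2 fold change came to 0.35 ± 0.08 (SE) at 24 h (adjusted p = 0.00288) and 0.64 ± 0.08 at 36 h (adjusted p = 3.92e-07).

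*Krt42* was at 12.6 and 13.1 CPM at 0 h, 17.0 and 14.2 CPM at 12 h and 16.5 and 15.4 CPM at 18 h. It was at 18.8 and 18.4 CPM at 24 h and at 21.3 and 23.3 CPM at 36 h. Among the 6 it had the largest log2 fold change at 24 h, 0.53 ± 0.09 (SE; adjusted p = 5.67e-05), which became 0.79 ± 0.09 at 36 h (adjusted p = 4.04e-08). Whether its rise differed from that of the other members was not tested.

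*Krt17* was at 5.86 and 5.07 CPM at 0 h, 6.92 and 5.17 CPM at 12 h and 6.47 and 6.38 CPM at 18 h. It was at 7.31 and 6.55 CPM at 24 h and at 4.95 and 5.01 CPM at 36 h. Both replicates at 18 and 24 h stood above both untreated libraries, and the 36 h libraries were the lowest 2 of the 10. Against 0 h its log2 fold change came to 0.35 ± 0.13 (SE) at 24 h (adjusted p = 0.0582) and -0.13 ± 0.15 at 36 h (adjusted p = 0.537), so neither passed. The 24 h value was called with total-count scaling (adjusted p = 0.0468), without a filter (0.0494), and without 0 h replicate 1 (0.0456) or 12 h replicate 1 (0.0482). Its counts ranged from 103 to 225 reads, the fewest of the members, and 3.99% of the stretches of 50 bases in its transcript also occur in *Krt14*, *Krt15*, *Krt16* or *Krt42*, so some of its reads may be split among them.

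Between 24 and 36 h *Krt17* parted from the others. It fell by 0.48 on the log2 scale (SE 0.14, adjusted p = 0.0197), where 6.55% of all tested genes were called lower. *Krt7*, *Krt8*, *Krt18*, *Krt19* and *Krt42* were called higher in the same step, beside 8.13% of all tested genes (14.7% in either direction). Their log2 fold changes over this step were 0.61 (*Krt7*), 0.58 (*Krt8*), 0.56 (*Krt18*, adjusted p = 4.49e-10), 0.30 (*Krt19*) and 0.26 (*Krt42*). The fall of *Krt17* was not called by DESeq2 (adjusted p = 0.0810), nor without 24 h replicate 1 (adjusted p = 0.195), 36 h replicate 1 (0.0984) or 36 h replicate 2 (0.0743). The rises of *Krt19* and *Krt42* in this step were not called by DESeq2 (adjusted p = 0.0510 and 0.127) or with total-count scaling (0.0898 and 0.220), nor without 24 h replicate 2 (0.100 and 0.173) or 36 h replicate 2 (0.0656 and 0.229). Without 24 h replicate 1 that of *Krt42* was not called (0.126). Tested over the whole course at once, all 6 members were called, beside 34.4% of all tested genes, and *Krt17* passed with an adjusted p of 0.0456 that rose above 0.05 under 8 of 17 alternatives.

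**Figure D2:**
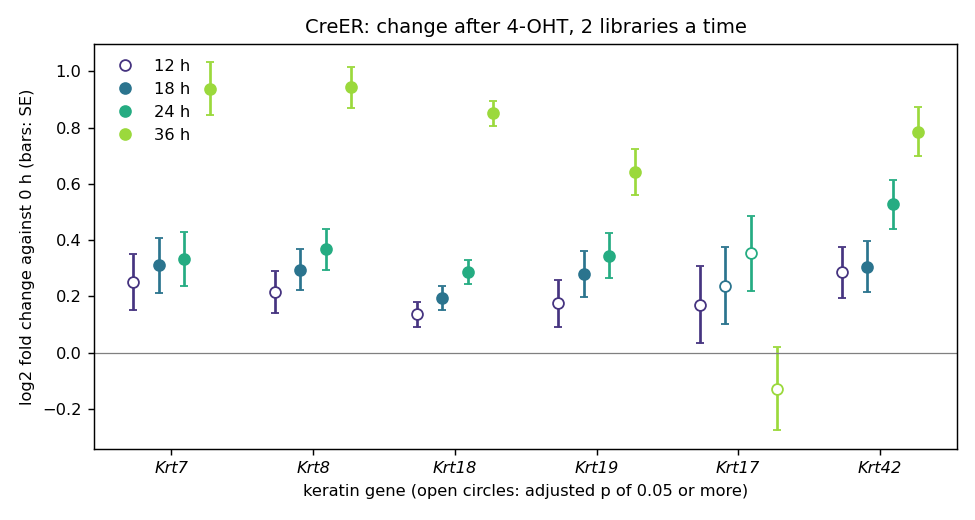
Log2 fold change of each keratin against 0 h in CreER (y axis) at 12, 18, 24 and 36 h of 4-OHT, with the standard error as bars and 2 libraries at each time. Filled circles mark an adjusted p under 0.05: all 5 members other than *Krt17* are filled from 18 h on, and *Krt17* is open at every time, at -0.13 at 36 h.

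The O4AID course asked the same after degradation of the OCT4 protein itself. With 1 library per time there is no replicate check and no p-value, and intervals cover counting error only. *Krt7*, *Krt8*, *Krt18* and *Krt19* passed a 2-fold rise on the log2(CPM + 1) scale by 24 h, *Krt42* was highest at 10 h, and *Krt17* had at most 7 reads. The count past 2-fold was 0 of 6 at 1.5 h (0.0229% of all genes with a mean of at least 10 reads were past it upward and 0.0858% in either direction) and 0 at 6 h (0.414% and 0.937%). It was 1 at 10 h (*Krt7*, beside 1.11% and 2.1%) and 4 at 24 h (beside 3.81% and 6.6%). *Krt17* was under a mean of 10 reads at every time and *Krt19* at 1.5 h. *Krt19* passed this minimum later through the treated libraries alone. The added 1 understates the change of low genes, and with 0.1 in its place 3 members were past 2-fold at 6 h, 3 at 10 h and 5 at 24 h.

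*Krt7* had 21, 30, 64, 105 and 372 reads at 0, 1.5, 6, 10 and 24 h, or 0.448, 0.672, 1.55, 2.56 and 7.72 CPM. Each step brought more reads, and the ratio to 0 h without a pseudocount was 3.46-fold (95% interval 2.08 to 5.96) at 6 h and 17.2-fold (11.1 to 28.1) at 24 h. *Krt8* had 420, 421, 502, 656 and 1743 reads, or 8.97, 9.43, 12.2, 16.0 and 36.2 CPM. It was at 1.05-fold (0.916 to 1.21) at 1.5 h, 1.36-fold (1.19 to 1.55) at 6 h and 4.03-fold (3.62 to 4.50) at 24 h.

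*Krt18* had 264, 260, 401, 435 and 1595 reads, or 5.64, 5.82, 9.71, 10.6 and 33.1 CPM. It gained in 2 steps, 1.67-fold (1.42 to 1.96) from 1.5 to 6 h and 3.12-fold (2.80 to 3.47) from 10 to 24 h, with 1.09-fold (0.953 to 1.26) between 6 and 10 h. *Krt19* had 6, 10, 21, 38 and 182 reads, or 0.128, 0.224, 0.508, 0.928 and 3.78 CPM. At 24 h it stood at 29.5-fold, the highest ratio of the 6, with a wide interval (13.3 to 81.4) because of the 6 reads at 0 h.

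*Krt42* had 25, 35, 65, 83 and 66 reads, or 0.534, 0.784, 1.57, 2.03 and 1.37 CPM. It was highest at 10 h, 3.80-fold over 0 h (2.40 to 6.20), and from 10 to 24 h it dropped to 0.676-fold (0.481 to 0.945), while *Krt7*, *Krt8*, *Krt18* and *Krt19* gained 2.26-fold to 4.07-fold over the same step. *Krt17* had 4, 6, 2, 7 and 2 reads. Its ratio at 24 h was 0.486-fold with an interval of 0.0440 to 3.39, so no change was detectable at this depth.

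**Figure D3:**
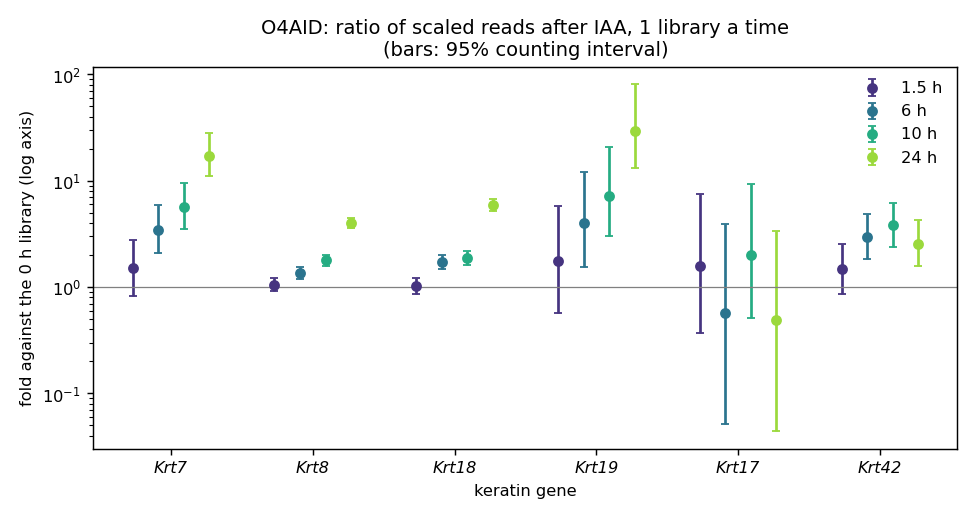
Ratio of TMM-scaled reads of each keratin to the 0 h library in O4AID (y axis, log scale) at 1.5, 6, 10 and 24 h of IAA, with 95% counting intervals and 1 library per time. *Krt19* reaches 29.5-fold and *Krt7* 17.2-fold at 24 h, *Krt42* is highest at 10 h (3.80-fold), and the intervals of *Krt17* span 1 throughout.

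At 24 h, the treated time that both lines share, the log2 fold change in CreER and the log2 ratio without a pseudocount in O4AID were 0.33 and 4.11 for *Krt7*, 0.37 and 2.01 for *Krt8*, 0.29 and 2.55 for *Krt18*, and 0.35 and 4.88 for *Krt19*. They were 0.53 and 1.36 for *Krt42* (95% counting interval in O4AID 0.68 to 2.09) and 0.35 and -1.04 for *Krt17* (-4.51 to 1.76). The difference between lines was not tested, since O4AID has 1 library per time. Equal hours also do not mean equal loss of OCT4. The paper reports that the degron removed its target protein much faster than deletion of the gene did. In CreER the log2 fold change of the *Pou5f1* transcript was -1.255 at 24 h and -1.43 at 36 h. The values at 24 h are therefore matched by hours only, and the part of this timing in them was not tested.

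The starting levels were far apart. Untreated CreER exceeded untreated O4AID per length by 9.99-fold for *Krt8*, 17.8-fold for *Krt7*, 22.9-fold for *Krt42*, 24.1-fold for *Krt18*, 60.7-fold for *Krt17* and 110-fold for *Krt19*. The ratio of *Krt8* is 14.3-fold when the reads of its pseudogene *Krt8-ps*, described further on, are added. It rests on 420 reads of *Krt8* in O4AID and that of *Krt19* on 6 reads. After 24 h of IAA, *Krt7* stood at 97.5% of its untreated CreER level, *Krt8* at 40.7%, *Krt19* at 27.0%, *Krt18* at 24.5%, *Krt42* at 11.3% and *Krt17* at 0.806%. The lines differ in strain, *Oct4* genotype, transgenes, doxycycline and sequencing depth, and these cannot be told apart. Untreated *Pou5f1* was at 143 RPKM in CreER and at 331 RPKM in O4AID, whose OCT4 comes from a transgene. In such bulk samples a larger share of cells that express a keratin and more keratin RNA per cell cannot be told apart either.

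The balance between keratin types also differed. Summed RPKM of the type I members over that of the type II members was 1.96 to 2.36 in the 10 CreER libraries and 0.885 to 1.25 in the 5 O4AID libraries, without overlap. The ratio of *Krt18* to *Krt8* alone was 1.73 to 2.04 in CreER and 0.796 to 1.18 in O4AID. Both gaps narrowed when reads of *Krt8-ps* were counted as *Krt8*. The type I over type II ratio was then 1.40 to 1.66 in CreER and 0.885 to 1.25 in O4AID, and the ratio of *Krt18* to *Krt8* was 1.23 to 1.42 and 0.793 to 1.18, so the lines still did not overlap but came close. Within CreER the makeup hardly moved as the total rose: *Krt18* made up 58.1% and 59.1% of the summed RPKM of the 6 at 0 h and 59.6% and 57.4% at 36 h, and *Krt8* 30.8% and 29.1% against 30.4% and 33.1%. *Krt17* went from 2.15% and 1.88% to 1.07% and 0.970%. In O4AID *Krt8* went from 52.4% to 42.1% between 0 and 24 h, *Krt18* from 42.5% to 49.7%, and *Krt19* from 0.728% to 4.28%. Ratios between genes rest on the lengths used, and with the longest coding transcripts the type I over type II ratio was 2.08 to 2.51 in CreER and 0.939 to 1.29 in O4AID.

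An annotated pseudogene bears on the *Krt8* values. Of the stretches of 50 bases in the *Krt8* transcript, 29.7% also occur elsewhere, in *Krt8-ps* or in the overlapping transcript *Gm36026*, which the counts do not list. *Krt8-ps* took 28.5% to 30.8% of the reads of *Krt8* and *Krt8-ps* together in each CreER library, 1062 of 3497 reads in untreated replicate 1 (30.4%, 95% Wilson interval 28.9 to 31.9). In O4AID it took 0 to 4 reads per library, at most 0.473% (0.130 to 1.71). The intervals of the lines did not overlap. The lines differ in strain, and how reads that fit both genes were assigned is not stated, and the part of either in these shares was not tested. With the reads of both summed, the log2 fold change at 36 h in CreER was 0.92 in place of 0.94, and the log2 ratio at 24 h in O4AID stayed at 1.90. The antisense gene *Gm671* overlaps 831 exon bases of *Krt7* and is not among the counted genes either, and the strand setting of the counting is not stated. The *Krt18* pseudogene *Gm17847* had 0 or 1 read in CreER and 0 in O4AID.

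**Figure D4:**
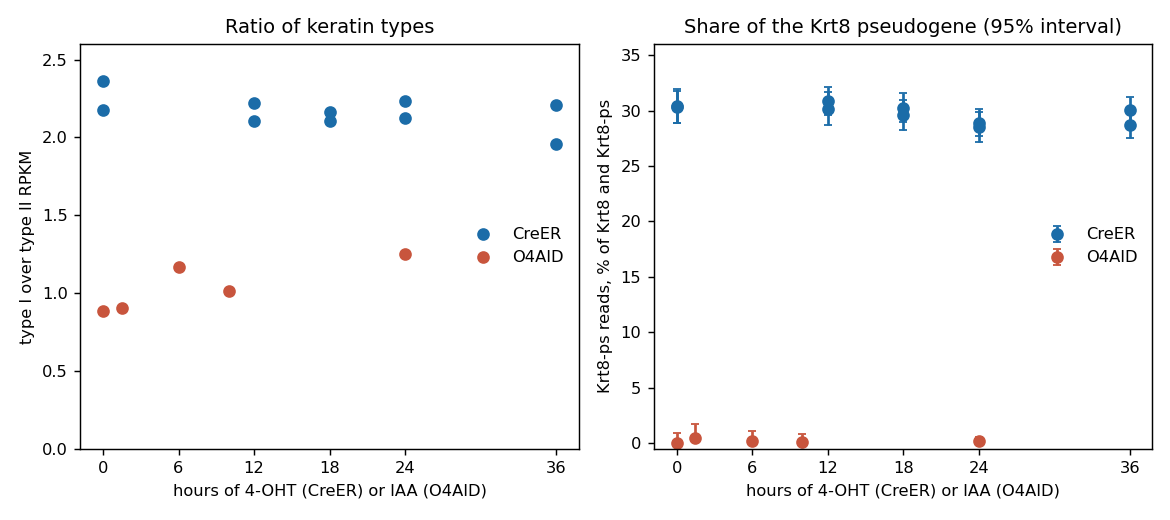
Left, ratio of summed type I to summed type II keratin RPKM per library against hours of 4-OHT (CreER) or IAA (O4AID). Right, reads of the pseudogene *Krt8-ps* as a percentage of its reads and those of *Krt8* together, with 95% Wilson intervals. CreER points lie at 1.96 to 2.36 and 28.5% to 30.8%, O4AID points at 0.885 to 1.25 and 0 to 0.473%, and the left panel leaves out the reads of *Krt8-ps*, with which CreER lies at 1.40 to 1.66.

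Over the 10 CreER libraries the log2 CPM of *Krt7*, *Krt8* and *Krt18* ran together, with Pearson's r of 0.98 for each of their pairs. Pairs with *Krt19* gave 0.91 to 0.93 among *Krt7*, *Krt8*, *Krt18* and *Krt42*, while *Krt17* gave -0.43 with *Krt18* and -0.03 with *Krt42*. These values describe 10 libraries from 5 times, which share the course of treatment. Among the genes most like *Krt8* were *Csrp1* (r = 0.99) and *Krt8-ps* (0.99, a gene that may share its reads). Those most like *Krt18* were *Fxyd6* (0.99), *Ninj1* (0.99) and *Pef1* (0.99), and those most like *Krt7* were *Glrx* (0.99), *Tagln2* (0.99) and *Hexa* (0.99). *Krt19* was closest to *Ift122* (0.99), *Slc35f6* (0.98) and *Agpat4* (0.98), and *Krt42* to *Btg1* (0.98), *Dab2ip* (0.98) and *Stx2* (0.97). For *Krt17* the highest values were lower, 0.91 with *Gm17231*, 0.90 with *Gm4880* and 0.90 with *Nexn*, where *Gm17231* averaged 0.464 CPM and *Gm4880* 0.415 CPM. Over the 5 O4AID libraries the r of these named pairs ranged from -0.85 (*Fxyd6* with *Krt18*) to 0.98 (*Tagln2* with *Krt7*). There *Krt18* gave 0.19 with *Ninj1* and 0.25 with *Pef1*, so likeness in CreER did not always hold in O4AID.

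The remaining 48 keratins were low. Of these, 7 had no read in any library, 9 reached 10 reads in some CreER library and 4 in some O4AID library. In CreER 8 were tested, and at 36 h 1 was called higher, beside 19.4% of all tested genes, and none lower (median log2 fold change 0.19). This was *Krt79*, at 0.239 ± 0.0028 CPM (SD, n = 2) at 0 h and 0.549 ± 0.0195 CPM at 36 h (log2 fold change 1.19, SE 0.45, adjusted p = 0.0409), on 6 to 17 reads. In O4AID at 24 h 4 had a mean of at least 10 reads and 0 passed 2-fold, beside 6.6% of all such genes in either direction.

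Proteins that anchor keratin filaments were followed beside them, as desmosome and cytolinker genes. Of 12 tested, 8 were called higher and 0 lower at 36 h in CreER (median log2 fold change 0.34), where 19.4% of all tested genes were called higher and 17.2% lower. The largest rises were those of *Dsc2*, a desmosomal cadherin (1.27, SE 0.09, adjusted p = 5.59e-12), *Ppl*, a plakin (1.01, SE 0.07, adjusted p = 1.84e-11), and *Dsp*, the plakin that ties keratins to the desmosome (0.98, SE 0.04, adjusted p = 2.59e-16). In O4AID at 24 h *Dsc2* (log2 ratio 2.76) and *Dsp* (1.47) were past 2-fold upward, *Ppl* was at 0.82, and *Jup*, the desmosomal plakoglobin, was past it downward (-1.41). Of all genes with a mean of at least 10 reads, 3.81% were past 2-fold upward and 6.6% in either direction. *Jup* had an edgeR value of -0.13 (log2 fold change, adjusted p = 0.0827) at 36 h in CreER.

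Of 14 tested intermediate filament genes other than keratins, 4 were called higher and 6 lower at 36 h in CreER (median -0.11), beside 19.4% and 17.2% of all tested genes. Lower were the neurofilaments *Nefl* (log2 fold change -0.82, SE 0.10), *Nefh* (-0.78, SE 0.06) and *Nefm* (-0.70, SE 0.17), and higher were *Des* (0.46, SE 0.11), the lamin *Lmna* (0.41, SE 0.06) and *Vim* (0.39, SE 0.05). In O4AID at 24 h *Vim* was past 2-fold upward (log2 ratio 1.11) and *Nefm* downward (-1.30), with *Nefl* at -0.99 (interval -1.17 to -0.82). Of 13 transcription factors of epithelia and trophectoderm, 9 were called higher and 2 lower at 36 h in CreER (median 0.84), beside the same 19.4% and 17.2%. *Hand1* (2.71, SE 0.08), *Cdx2* (2.43, SE 0.14) and *Elf5* (2.09, SE 0.38, on 3 to 34 reads) had the largest rises, and *Klf5* (-0.76, SE 0.08) and *Grhl2* (-0.37, SE 0.05) fell. In O4AID at 24 h 1 of the 13 was past 2-fold upward (*Gata2*, log2 ratio 2.07) and 1 downward (*Tead4*, -1.40). Beside both lists, 3.81% of all genes with a mean of at least 10 reads were past it upward and 6.6% in either direction. *Hand1* went from 0.299 to 1.51 CPM, *Cdx2* from 0.897 to 2.76 CPM and *Elf5* from 0.192 to 0.249 CPM, levels at which the added 1 holds down the ratio (0.95, 0.99 and 0.07).

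Markers of cell types were followed in the same libraries, and their counts at 36 h stand beside 19.4% of all tested genes called higher and 17.2% lower. The 5 trophectoderm markers (*Cdx2*, *Gata3*, *Hand1*, *Elf5* and *Gcm1*) summed to 18.7 to 20.7 CPM at 0 h and 94.0 to 95.8 CPM at 36 h in CreER, where all 5 were called higher, and to 2.65 and 8.44 CPM at 0 and 24 h in O4AID. Of 7 tested primitive endoderm markers 3 were called higher and 1 (*Sox7*) lower at 36 h, with sums of 15.9 to 18.2 and 41.4 to 41.6 CPM in CreER and of 10.3 and 43.6 CPM in O4AID. *Sox7* was at 0 in O4AID at 1.5 and 10 h. The 7 ESC markers, *Pou5f1* among them, summed to 2362 to 2377 and 1964 to 2004 CPM in CreER (1 called higher and 5 lower) and to 4896 and 1595 CPM in O4AID. Fibroblast markers summed to 8.45 to 8.99 and 9.81 to 10.3 CPM in CreER (1 of 5 tested called higher) and to 4.76 and 2.57 CPM in O4AID, where *Col3a1*, *Dcn* and *Postn* were at 0 at 24 h. Stratified epithelium markers summed to 1.52 to 3.08 and 2.48 to 3.06 CPM in CreER (0 of 2 tested called, and 0 at an unadjusted p under 0.05) and to 1.90 and 3.24 CPM in O4AID, where *Ivl*, *Krt1*, *Krt5* and *Krt14* were at 0 at 24 h. The part of these cell types in the keratin values was not tested.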

How the data were processed

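Total RNA was depleted of ribosomal RNA, and directional paired-end libraries were sequenced. The authors trimmed reads with Trim Galore 0.1.4, aligned them to GRCm38/mm10 with TopHat2 2.1.0 and counted them per Ensembl gene with featureCounts 1.5.1, with strand and multimapping settings not given in the sources used here. The deposited files hold raw counts of reads per gene for each library, and the deposited table of normalised values was not used. The 92 spike-in entries (0 reads) were left out. Genes without a symbol (0.0412% of reads) stayed in the tests. Replicate pairs differed by 3.02 to 7.00 in chi-square per degree of freedom, which is more than read sampling alone gives. Each library was used as a sample, although this excess does not show that replicates came from separate cultures.

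Groups came from the sample labels. The 10 CreER libraries were fitted together with edgeR 4.0.16 (R 4.3.3; TMM, filterByExpr, robust quasi-likelihood, prior count 0.125), and p-values were adjusted by Benjamini-Hochberg over 18969 genes, with calls at an adjusted p under 0.05. O4AID ratios used CPM plus 1 from TMM factors over its 5 libraries, with 95% Wilson intervals, genes with a mean of at least 10 reads and a threshold of 2-fold. Ratios without a pseudocount carry exact conditional binomial intervals (SciPy 1.17.1). RPKM used TMM over all 15 libraries and the gene lengths in the files. Likeness is Pearson's r of log2 CPM (prior count 2) over CreER, and for the 5 O4AID libraries only the range and the genes most like *Krt18* are given. The named genes were the 6 members, the 3 most like each of them (1 of those for *Krt8* is not reported here), and up to 3 called genes in each direction with the largest change at 36 h from each list. *Jup*, *Sox7*, *Gata2* and *Tead4* in O4AID, and the markers named at 0 fall outside this rule and were chosen after their values were seen. Exons, UTRs and shared stretches of 50 bases came from GENCODE M21 (GRCm38), and promoter windows from RefSeq. In counts simulated for 36 h against 0 h in CreER (18912 genes tested), the fit recovered 98% of 100 genes changed 2-fold and 46% of 100 changed 1.5-fold. The simulation set a wider spread between replicates than the fit found in the data, and changed only genes above a minimum of reads. These shares therefore do not give the chance of calling a member. The members and lists were chosen with earlier results of these data known. The reads carry no molecular identifiers, so intervals cover counting error only. Alternatives were other scalings (median of ratios, total counts), filters, pseudocounts and prior counts, DESeq2 1.42.0, a replicate block, fits without each replicate and, chosen after seeing the data, *Krt8* and *Krt8-ps* summed (fold changes and ratios between keratins), ratios without a pseudocount and coding transcript lengths.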

Additional observations from a re-analysis of the deposited data

Results flagged for a closer look

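The 24 h values of *Krt17* lay on opposite sides of its 0 h values in the lines, and neither difference was established. In CreER it was at 5.86 and 5.07 CPM at 0 h and at 7.31 and 6.55 CPM at 24 h, higher in both replicates but not called by edgeR (adjusted p = 0.0582), whereas in O4AID it was at 0.0854 CPM at 0 h and 0.0415 CPM at 24 h, which are 4 and 2 reads. The difference between the lines was not tested, and the O4AID interval (0.0440-fold to 3.39-fold) includes both directions, so no change was detectable there at this depth.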

How the results depend on the processing

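The count of members called at 36 h in CreER was 5 under every alternative run, and the count past 2-fold at 1.5 h in O4AID was 0. Without a filter the 12 h count was 1 (*Krt8*, adjusted p = 0.00323) in place of 0. DESeq2 gave 2 at 18 h and 3 for 36 h against 24 h, and a fit of only the 4 libraries compared gave 3 at 18 h. Leaving out 1 replicate, with a lone library assumed to vary like the other groups, gave 0 to 1 at 12 h, 0 to 5 at 18 h, 3 to 6 at 24 h, 3 to 6 for 36 h against 24 h (3 without 36 h replicate 2) and 5 to 6 for any time. In these fits 1 direction reversed, that of *Krt17* at 12 h, whose log2 fold change ranged from -0.079 (without 12 h replicate 1) to 0.35. In O4AID a pseudocount of 0.1 gave 3 at 6 h and 3 at 10 h, a pseudocount of 5 gave 0 at 10 h and 3 at 24 h, and total counts gave 2 at 10 h. Shares of all genes past 2-fold under these O4AID alternatives are not given here, so these counts show only how far the member count moves. The summed level per length of the 6 in untreated CreER was 172.1 RPKM, 177.7 RPKM with total counts and 169 RPKM with coding transcript lengths. Total counts moved the median of all genes to -0.10 for 36 h against 24 h and cut the higher calls from 55.4% to 17.5% of all calls, and 4 members were called. At 36 h this share went from 53.1% to 36.0%, at 24 h from 51.0% to 61.3% and at 12 h from 65.3% to 36.9%. Calls over all genes went from 75 to 222 without a filter at 12 h, and by DESeq2 from 1616 to 989 at 18 h, 4089 to 2595 at 24 h and 2785 to 1656 for 36 h against 24 h. Leaving out 1 replicate gave 8 to 218, 582 to 2006, 2343 to 4509 and 1491 to 3165 in these comparisons. The causes were not tested. With the replicate block 4 members were called at 18 h (*Krt7* at an adjusted p of 0.0502) and 5 at 36 h, and the block changed no other call of a member. Deviations of same-numbered replicates between times correlated at -0.02 to 0.05, so no shared replicate effect was seen. This cannot show whether same-numbered libraries came from the same culture. Depth limits *Krt17* and *Krt19* in untreated O4AID, with 4 and 6 reads.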
